A study of Homo sapiens with 6 samples.

Results

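The histone genes of a breast cancer line were compared between cells with much and with little CD104 on their surface. Members were the genes of the table whose symbol marks a linker or core histone, and 51 of its 15024 genes were such genes, of which 50 are described. Of the 50, 38 were cluster genes, which carry C and a number in the symbol or are H1-1 to H1-5. They were 2 of H1, 9 of H2A, 12 of H2B, 7 of H3 and 8 of H4. The other 12 were variant genes: H1-10, H2AX, H2AZ1, H2AZ2, H2AJ, MACROH2A1, MACROH2A2, H3-3A, H3-3B, H3-5, H3-2 and H4-16. This split is by symbol alone, so H4-16, which encodes an ordinary H4, stands among them. One of the 38, H2BC20P, is annotated as a transcribed pseudogene. CENPA, the centromeric H3 variant, was not a member because its symbol is not of this form.

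The cells were MDA-MB-231, a widely used and established line of human breast cancer that is triple-negative and mesenchymal in appearance. All 6 samples were labelled Mll3-null, that is, without the histone H3 lysine 4 methyltransferase encoded by KMT2C, and all had been kept in 10 µM forskolin for 14 days, an activator of adenylyl cyclase. Sorting gave a CD44+CD104high population, which the sample titles mark E/M (3 samples), and a CD44+CD104-/low population, marked M and written CD104low here (3 samples). CD104 is integrin beta-4, the product of ITGB4. It was not stated whether the null line is 1 clone, wild-type cells and cells without forskolin were not analysed here, and the labels call the samples biological replicates without naming cultures, so the p-values reflect only how these samples spread, which may be technical. ITGB4 had 16463 ± 2616 scaled reads (SD, n = 3) in CD104high against 1699 ± 503 (SD, n = 3) in CD104low, in the direction of the sort. KMT2C still had reads, 3816 ± 221 (SD, n = 3) in CD104high against 2507 ± 371 (SD, n = 3) in CD104low, which checks nothing where the place of the deletion is unknown. A scaled read is a whole number of reads, either counted or rounded from an estimate, divided by 1 size factor per library, and is not corrected for gene length, so read numbers do not rank genes by level. The libraries held between 49791498 and 60069719 recovered reads over the listed genes.

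Replication-dependent histone genes lie in clusters, are transcribed mainly in S phase, and supply the bulk of the histones that package newly copied DNA. Their messenger RNAs end in a conserved stem-loop bound by SLBP instead of a poly(A) tail, and are degraded when DNA synthesis stops. Variant genes such as H3-3A and H2AZ2 lie outside the main clusters, are made throughout the cell cycle and mostly carry poly(A) tails, and their proteins are placed by dedicated chaperones. Some cluster genes can also give longer, polyadenylated transcripts, mostly in cells that divide slowly or have left the cycle.

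The stem-loop is shown because it is the feature that usually separates the 2 classes of transcript. The motif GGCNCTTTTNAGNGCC, with N any base, was searched on the sense strand of the GENCODE 29 transcripts. It was in 20 of the 36 cluster members with a transcript there (55.6%), in 2 of 12 variant members (16.7%), H2AX and H4-16, and in 40 of all 58676 genes (0.0682%). Many cluster members are annotated as a coding sequence alone, so no match says only that these letters are not in the model. The sites are given 5′ to 3′ on the sense strand with the 16 bases of the stem-loop in capitals. They lie in GRCh38 at chr6:26124662-26124691 on the plus strand, chr6:26158580-26158609 (plus), chr6:27810509-27810538 (plus), chr6:27139647-27139676 (plus), chr6:26285124-26285153 (minus) and chr11:119094891-119094920 (minus), in the order of the lines.
H2AC6: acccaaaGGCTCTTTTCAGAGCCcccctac
H2BC5: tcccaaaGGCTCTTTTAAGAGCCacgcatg
H3C10: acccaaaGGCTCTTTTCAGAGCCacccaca
H4C9: ctaaaaaGGCCCTTTTTAGGGCCcctaagc
H4C8: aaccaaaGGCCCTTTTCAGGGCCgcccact
H2AX: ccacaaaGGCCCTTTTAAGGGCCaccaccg

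The form in H2AC6 and H3C10 was shared by 11 members of the H2A, H2B and H3 families, and that in H2BC5 by H2BC4. The form in H4C9 was also in H4C14, and that in H4C8 also in H4C2, H4C11 and H4-16. H2AX, which is transcribed in S phase with a stem-loop and also as a longer polyadenylated RNA, had a form of its own among the members. Of the 36 cluster members, 13 had a transcript with over 100 annotated bases after the loop, among them H2AC6 with 1128 bases, H3C10 with 769, H4C8 with 1655 and H4C9 with 212, while H2BC5 had 39.

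Promoters were matched for 42 of the 50 members in RefSeq windows of 300 bases on GRCh38.p14, 250 before to 50 after the start site. Motifs were searched as exact letters on both strands: the octamer ATTTGCAT of H2B promoters, the CCAAT box CCAAT, the TATA box TATAAA and the AC box AAACACA of H1 promoters. The octamer was in 13 of 33 cluster promoters (39.4%) against 1.77% of all 35116 promoters of that length, CCAAT in 84.8% against 34.6%, TATAAA in 78.8% against 11.5%, and the AC box in 12.1% against 5.64%. By family the octamer was in 8 of 11 H2B and 5 of 8 H2A promoters and in none of 6 H3 and 6 H4 promoters, and the AC box was in both H1 promoters. Some H2A and H2B windows overlap, so 1 octamer site was counted for both H2AC6 and H2BC4. The same holds for H2AC11 and H2BC11, and for H2AC20 and H2BC21. Among the 9 variant promoters, 1 held the octamer (H3-3B), 6 held CCAAT and 4 held TATAAA. The next lines give the 130 bases before the start site of the members to which the results below refer most, with every match in capitals. They lie at chr6:26056471-26056600 (minus), chr6:26156199-26156328 (plus), chr6:27132796-27132925 (minus), chr1:149886683-149886812 (minus), chr6:27809921-27810050 (plus) and chr4:99950276-99950405 (minus), in the order of the lines.
H1-2: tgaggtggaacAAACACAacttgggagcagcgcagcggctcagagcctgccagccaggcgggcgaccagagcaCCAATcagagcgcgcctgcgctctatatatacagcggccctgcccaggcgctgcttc
H1-4: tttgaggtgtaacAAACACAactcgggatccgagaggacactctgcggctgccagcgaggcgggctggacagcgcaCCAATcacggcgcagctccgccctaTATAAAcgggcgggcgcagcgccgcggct
H2BC11: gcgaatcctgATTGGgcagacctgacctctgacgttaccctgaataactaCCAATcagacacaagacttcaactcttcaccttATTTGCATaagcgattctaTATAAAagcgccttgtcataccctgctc
H2BC21: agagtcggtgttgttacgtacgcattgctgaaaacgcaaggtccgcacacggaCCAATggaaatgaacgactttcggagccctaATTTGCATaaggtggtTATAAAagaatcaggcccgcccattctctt
H3C10: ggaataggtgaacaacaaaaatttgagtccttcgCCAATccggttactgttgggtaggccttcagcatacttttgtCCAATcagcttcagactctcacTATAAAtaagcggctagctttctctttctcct
H2AZ1: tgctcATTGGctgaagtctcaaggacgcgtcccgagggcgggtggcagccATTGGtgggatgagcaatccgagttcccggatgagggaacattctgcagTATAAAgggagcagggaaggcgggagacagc

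The 2 H1 promoters share the AC box and a CCAAT box further down. H2BC11, which was lower in CD104high, and H2BC21, which was not called, both carry the octamer followed by TATAAA. H3C10 holds a pair of CCAAT boxes before TATAAA, and H2AZ1, a variant gene, also holds CCAAT, on the other strand, and TATAAA.

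Most cluster histone genes had lower means in CD104high than in CD104low, and the linker histones H1-2 and H1-4 both fell, while 1 of the 11 H2B genes tested was called lower. Among the variant genes called lower, H2AZ1 had the most negative fold change. Calls were made with limma on log2(scaled reads + 1) over all 14420 genes tested, at a Benjamini-Hochberg adjusted p under 0.05. Of the 19 cluster genes with a mean of at least 50 scaled reads, 7 were called lower and 0 higher. In the same range 24.6% of all genes were called lower and 23.6% higher. Of the 10 variant genes described in that range, 6 were called lower. The median log2 fold change in that range was -0.39 for cluster genes, against -0.003 over all genes.

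Of the 38 cluster genes, 36 passed the filter of 10 scaled reads in at least 3 samples, and 10 of those were called lower and 0 higher, where 21.6% of all genes tested were called lower and 21.8% higher. H2BC3 and H3C14 did not pass, and H4C2 passed through the CD104low libraries alone. H2AC4 and H3C13, both called lower, reached 10 in CD104high only in replicate 3 (12.2 and 15.2). They passed mainly through CD104low, so their calls were partly fixed by the filter. With no filter, 11 of all 38 were called lower and 0 higher, with a median of -0.52. At an unadjusted p under 0.05 limma placed 15 cluster genes lower and 0 higher, where 25.5% of all genes were lower and 26.3% higher. After adjustment edgeR and DESeq2 on recovered reads each called 12 lower and 0 higher. Of all genes, edgeR called 22.9% lower and 20.5% higher, and DESeq2 23.8% lower and 22.9% higher. The 12 variant genes described passed, and 6 were called lower. Means were below those of CD104low for 34 of the 38 cluster genes and 10 of these 12 variant genes, against 7219 of all 15024 genes. Every CD104high library lay below every CD104low library for 17 of 38 cluster genes and 8 of the 12 variant genes, where 26% of all genes did. For 0 cluster genes every CD104high library lay above, where 26.7% of all genes did. In bulk RNA, fewer cells in S phase and less histone RNA per cell cannot be told apart.

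**Figure D1:**
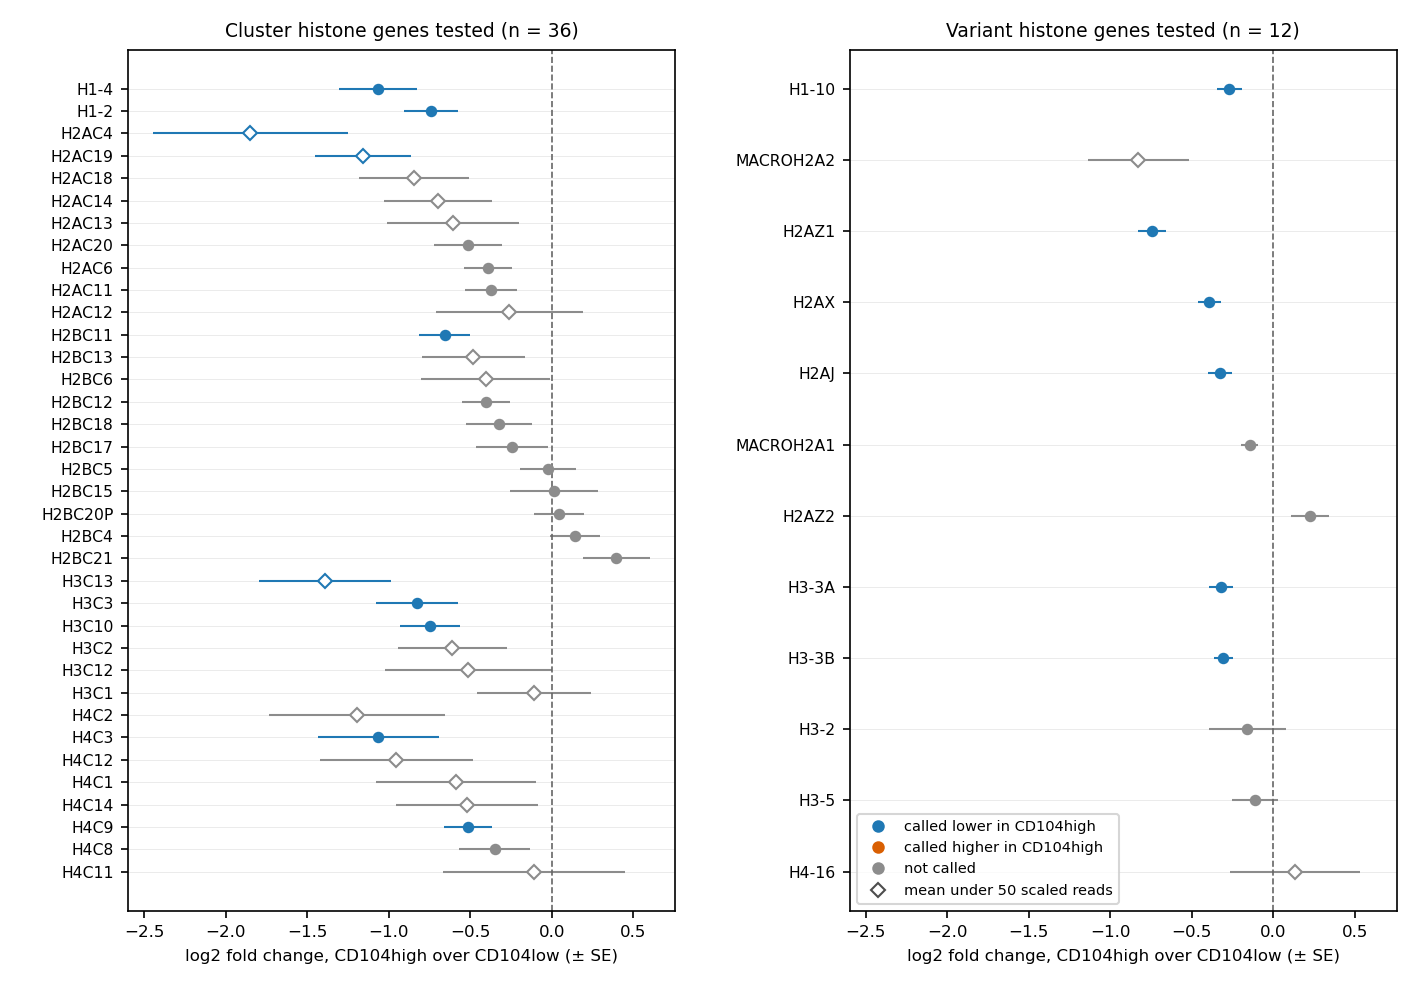
Log2 fold change of CD104high over CD104low with its standard error (limma, 3 samples a group) for the 36 cluster genes (left) and the 12 variant genes (right) described, grouped by family. Blue points passed the test as lower; open diamonds mark genes with a mean under 50 scaled reads. Most cluster points lie left of 0, and those right of it are H2B genes.

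The 2 cluster H1 genes encode linker histones, which bind where DNA enters and leaves the nucleosome. H1-2 (chr6:26055787-26056428) had 3486, 3011 and 4114 scaled reads in CD104high and 7536, 5575 and 4819 in CD104low. All CD104high libraries were below all CD104low libraries, and the gene fell by 0.74 ± 0.17 on the log2 scale (SE, limma adjusted p = 0.00734). H1-4 (chr6:26156354-26157107) on the same chromosome had 91.5, 87.4 and 93.3 against 214, 131 and 247 scaled reads. The CD104high values of H1-4 were close together while those of CD104low spread widely, and H1-4 fell by 1.07 ± 0.24 on the log2 scale (SE, limma adjusted p = 0.00768). Both genes kept their call in all 18 alternative analyses.

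H2A cluster genes encode the H2A of ordinary nucleosomes. H2AC6, the H2A cluster gene with the most reads, had 1776, 1800.4 and 2207 scaled reads in CD104high and 3095, 2511 and 2051 in CD104low. Replicate 3 of CD104high exceeded replicate 3 of CD104low, and H2AC6 was not called, at -0.39 ± 0.15 (log2, SE, limma adjusted p = 0.0611). Without replicate 3 of CD104high its adjusted p was 0.0299, and without replicate 3 of CD104low 0.0166. H2AC6 was also called lower with the replicate block, edgeR and DESeq2. H2AC11 had 123, 135 and 155 against 185, 182 and 166 scaled reads. H2AC20 had 103, 75.9 and 68.9 against 111, 126 and 113. For both H2AC11 and H2AC20 the groups did not overlap, and neither was called, at limma adjusted p of 0.0897 and 0.0768.

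H2B cluster genes made up the largest family, and the cluster genes tested with a fold change above 0 were all H2B genes. H2BC12, the cluster gene with the most reads, had 4304, 3983 and 5375 scaled reads in CD104high and 6856, 6413 and 4854 in CD104low. As for H2AC6, the 2 groups met in their replicates numbered 3, and the log2 fold change of -0.40 ± 0.15 (SE) was not called (limma adjusted p = 0.0517). H2BC12 was called lower in 5 of 18 alternatives, among them the replicate block, edgeR and DESeq2. Of the sequence of H2BC12, 86.3% of 31-base words also occurred in transcripts of other genes, so its reads may be shared with near-identical copies. H2BC11 (chr6:27125897-27132750), whose octamer promoter is given above, had 231, 193 and 201 against 380.1, 331 and 279.6. It was the H2B gene that fell, by 0.66 ± 0.16 on the log2 scale (SE, limma adjusted p = 0.00984), without overlap between groups, and lost its call with a correction for length and GC content (adjusted p = 0.0536).

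Several H2B genes showed no difference beyond their spread. H2BC5 had 912, 862 and 995 scaled reads in CD104high and 1187, 981 and 706 in CD104low, a log2 fold change of -0.02 ± 0.17 (SE). H2BC4 had 192, 207 and 233 against 215, 179 and 179. H2BC20P had 179, 194 and 165 against 163, 197 and 163. In each of these 3 genes the groups overlapped, with limma adjusted p of 0.922, 0.484 and 0.833. H2BC18 had 95.2, 68.0 and 96.3 against 103, 113 and 106. H2BC15 had 95.2, 57.4 and 116 against 90.5, 84.9 and 79.7. H2BC17 had 62.2, 69.7 and 82.1 against 102, 82.9 and 70.8. Among these, H2BC18 did not overlap and none was called (limma adjusted p = 0.23, 0.971 and 0.404).

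H2BC21 (chr1:149884459-149886652) stood at the other end of the family. It had 278, 302 and 374 scaled reads in CD104high and 297, 259 and 179 in CD104low, a log2 fold change of 0.40 ± 0.21 (SE), which did not pass the test (limma adjusted p = 0.151). It was the cluster gene with the most positive fold change among those tested.

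Both H3 cluster genes with a mean of at least 50 scaled reads were called. H3C10 (chr6:27810064-27811300) had 81.5, 83.0 and 70.0 scaled reads in CD104high and 149, 119 and 128 in CD104low. It fell by 0.75 ± 0.18 on the log2 scale (SE, limma adjusted p = 0.0114), and the groups were well apart. Without replicate 1 of CD104low its adjusted p was 0.0558 by limma. H3C3 had 46.7, 31.8 and 47.7 against 71.4, 65.7 and 86.5, and fell by 0.82 ± 0.25 (log2, SE, limma adjusted p = 0.0278). Its call was lost in 4 of the 6 analyses that left out 1 library, with adjusted p up to 0.0916.

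Among H4 cluster genes, H4C9 (chr6:27138588-27139881) had the most reads, with 735, 777 and 994 scaled reads in CD104high and 1359.7, 1218 and 998 in CD104low. The highest CD104high and the lowest CD104low library were nearly equal, both replicates numbered 3. H4C9 fell by 0.51 ± 0.15 on the log2 scale (SE, limma adjusted p = 0.0219), and lost its call without replicate 1 of CD104low (0.0929) and without replicates 1 (0.0841) or 2 (0.0643) of CD104high. It also lost the call without a trend (limma adjusted p = 0.0544) and with a length and GC correction, alone (0.128) or with a replicate block (0.0681). H4C3, a gene with no 31-base word in common with another gene, had 84.2, 48.5 and 119.6 against 230.3, 107 and 185. Its groups overlapped, and its call at -1.06 ± 0.37 (log2, SE, limma adjusted p = 0.0454) was lost in 4 of the 6 analyses that left out 1 library, without a trend and with a length and GC correction, with adjusted p up to 0.17. H4C8 had 178, 143 and 139.9 against 242, 212 and 144, and was not called (limma adjusted p = 0.227).

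The other 19 cluster genes had means under 50 scaled reads and library values between 0.883 and 82.0. They were H2AC4, H2AC12, H2AC13, H2AC14, H2AC18, H2AC19, H2BC3, H2BC6, H2BC13, H3C1, H3C2, H3C12, H3C13, H3C14, H4C1, H4C2, H4C11, H4C12 and H4C14. Among them H2AC19 had 28.4, 20.3 and 34.5 in CD104high and 79.4, 53.6 and 55.0 in CD104low (-1.16 ± 0.30 on the log2 scale, SE, limma adjusted p = 0.0135). H3C13 had 6.41, 7.94 and 15.2 against 30.2, 21.2 and 27.0 (-1.39 ± 0.41, adjusted p = 0.0231). H2AC4 had 5.49, 1.77 and 12.2 against 15.1, 28.3 and 22.5 (-1.85 ± 0.60, adjusted p = 0.0341). These 3 were called lower, H3C13 and H2AC4 after passing the filter mainly through CD104low. All 3 lost the call without replicate 1 of CD104low, with limma adjusted p of 0.0649, 0.0869 and 0.0609. H3C13 lost it in 4 of the 6 analyses that left out 1 library, and H2AC4 in 5 of the 6 and without a trend, with adjusted p up to 0.0875. H2AC19 and H3C13 share 97.2% and 86.4% of their 31-base words with other genes, so which copy the reads came from is uncertain.

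**Figure D2:**
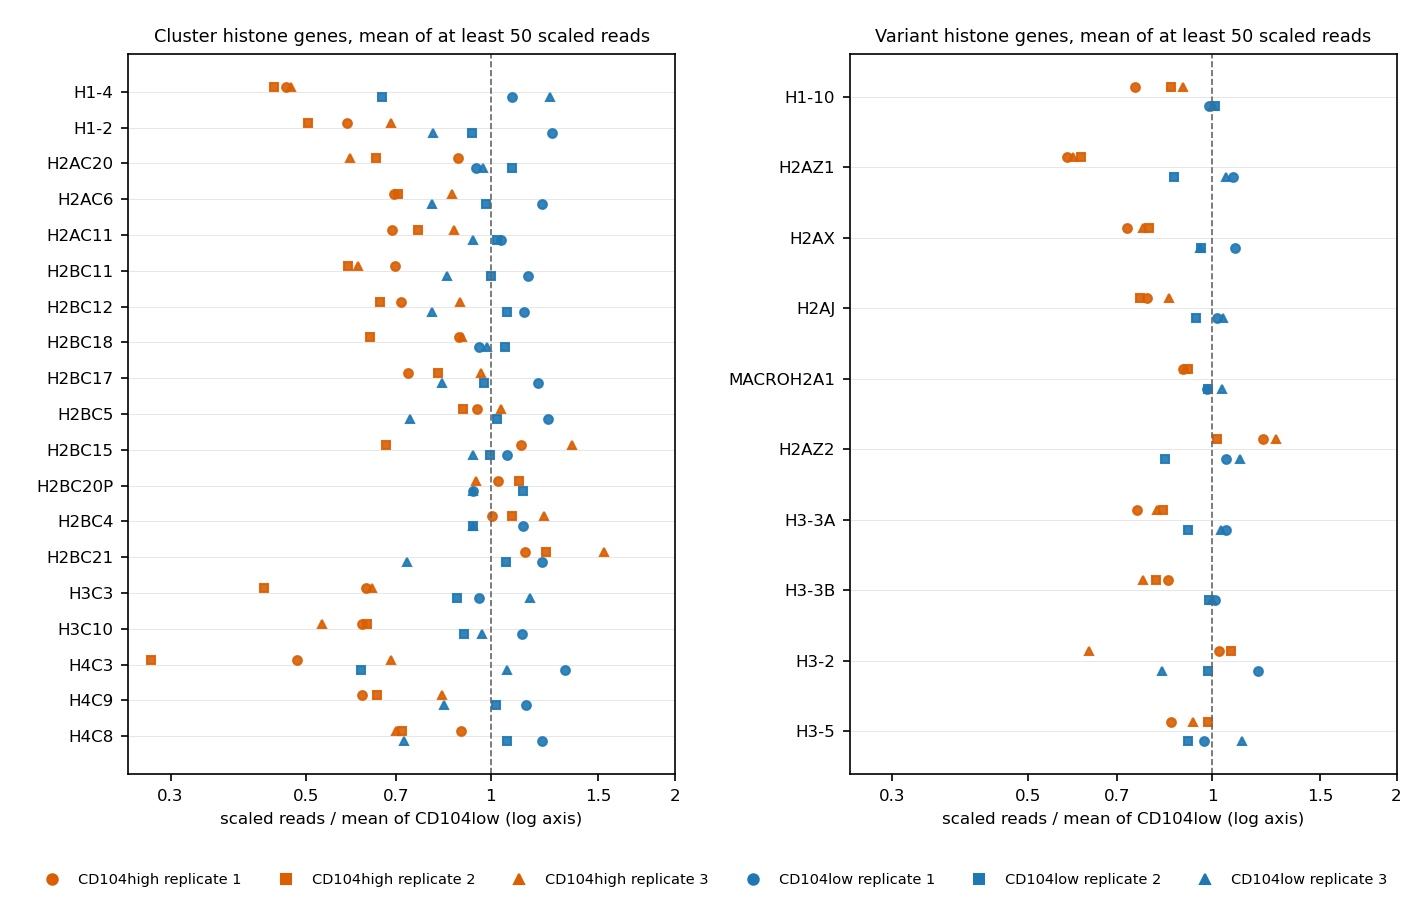
Scaled reads of each library divided by the mean of the 3 CD104low libraries (log axis), for the 19 cluster genes (left) and 10 variant genes (right) with a mean of at least 50 scaled reads. Orange symbols are CD104high and blue symbols CD104low, with the shape giving the replicate number. For H1-4, H1-2, H3C10 and H2BC11 all orange symbols lie left of all blue ones, whereas those of H2BC5 and H2BC20P mix.

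The 10 variant genes with a mean of at least 50 scaled reads had a smaller median spread between replicates than cluster genes. Most of them also had more reads than most cluster genes, and the classes were not matched for this. H3-2, a variant gene with a mean of 174 scaled reads, had a coefficient of variation of 26.7% in CD104high. Their coefficients of variation had a median of 5.41% in CD104high and 7.63% in CD104low, against 14.1% and 15.3% for the cluster genes of the same range. H2AZ1 (chr4:99948086-99950388) encodes H2A.Z.1, a variant placed at promoters and enhancers by the SRCAP and EP400 complexes. It had 16580.3, 17441 and 16922 scaled reads in CD104high and 30956, 24739 and 30117 in CD104low. The CD104high values lay within a narrow band far under the CD104low values, and H2AZ1 fell by 0.75 ± 0.09 on the log2 scale (SE, limma adjusted p = 0.000507). It kept the call in all 18 alternatives, from -0.85 to -0.64.

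H2AZ2 (chr7:44826791-44848083) encodes the near-identical H2A.Z.2 from another chromosome. It had 16827, 14144 and 17700.5 scaled reads in CD104high and 14658, 11655 and 15429 in CD104low, a log2 fold change of 0.23 ± 0.12 (SE) that was not called (limma adjusted p = 0.156). With a replicate block, with or without the length and GC correction, H2AZ2 was called higher. The ratio of H2AZ1 to H2AZ2 reads was 0.985, 1.23 and 0.956 in CD104high and 2.11, 2.12 and 1.95 in CD104low. This is a ratio of reads and not of transcripts, because the genes differ in length, but the same ratio was lower in every CD104high library. Over both genes the sum of reads was 21.9% lower in CD104high.

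H2AX, whose protein is phosphorylated around DNA breaks, had 24015, 26083 and 25560.1 scaled reads in CD104high and 36023, 31767 and 31596 in CD104low. It fell by 0.39 ± 0.07 on the log2 scale (SE, limma adjusted p = 0.00295), with no overlap. H2AJ, a variant that gathers in senescent cells with lasting DNA damage, had 2436, 2374 and 2643 against 3163, 2926 and 3242. It fell by 0.32 ± 0.07 (log2, SE, limma adjusted p = 0.00808), also with no overlap.

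MACROH2A1, a variant with a large macrodomain that is linked to silent chromatin, had 15628, 15893 and 15762 scaled reads against 17108, 17126 and 18067. The groups did not overlap, yet the difference of -0.15 ± 0.05 (log2, SE) was small and was not called (limma adjusted p = 0.058). MACROH2A1 was called lower in 5 of 18 alternatives, among them the replicate block, edgeR and DESeq2. MACROH2A2 had library values between 14.1 and 35.9, lower in every CD104high library, and was not called (-0.83 ± 0.31, limma adjusted p = 0.0577).

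H3-3A and H3-3B encode the same protein, H3.3, the replacement H3 that HIRA and DAXX with ATRX place outside replication. H3-3B had 27504, 26326 and 25031 scaled reads in CD104high and 32842, 32087 and 32484 in CD104low. H3-3A had 9857, 10885 and 10646 against 13782, 11929 and 13531. Both fell without overlap and by nearly the same amount, 0.31 ± 0.06 for H3-3B (log2, SE, limma adjusted p = 0.00378) and 0.32 ± 0.07 for H3-3A (0.00857). The read ratio of H3-3B to H3-3A was 2.52 ± 0.236 (SD, n = 3) in CD104high against 2.49 ± 0.172 (SD, n = 3) in CD104low. With a correction for transcript length and GC content H3-3A stood at -0.01 and was not called, while H3-3B kept its call.

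Of the other variant genes, H3-5 had 225, 259 and 245 scaled reads in CD104high and 255, 241 and 294 in CD104low. H3-2 had 187, 195 and 115 against 216, 179 and 150.5. H4-16, which encodes an H4 identical in protein to that of the clusters, ranged from 19.4 to 47.6. All 3 overlapped between groups and were not called (limma adjusted p = 0.549, 0.62 and 0.81). For H3-5, 36.8% of its 31-base words also occurred in 1 other gene, and the identifier given for H3-2 is a non-coding transcript in GENCODE 29. With H4-16 moved to the cluster class, 10 cluster genes and 6 variant genes were still called lower.

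H1-10 (chr3:129314771-129316277), a linker histone made outside S phase as well, had 6111, 7006 and 7323 against 8089.7, 8258 and 8210.4. It was lower in every CD104high library and fell by 0.27 ± 0.07 (log2, SE, limma adjusted p = 0.0192), and lost the call without replicate 1 of CD104high or without replicate 1 or 3 of CD104low, and without a trend, with adjusted p up to 0.0674.

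**Figure D3:**
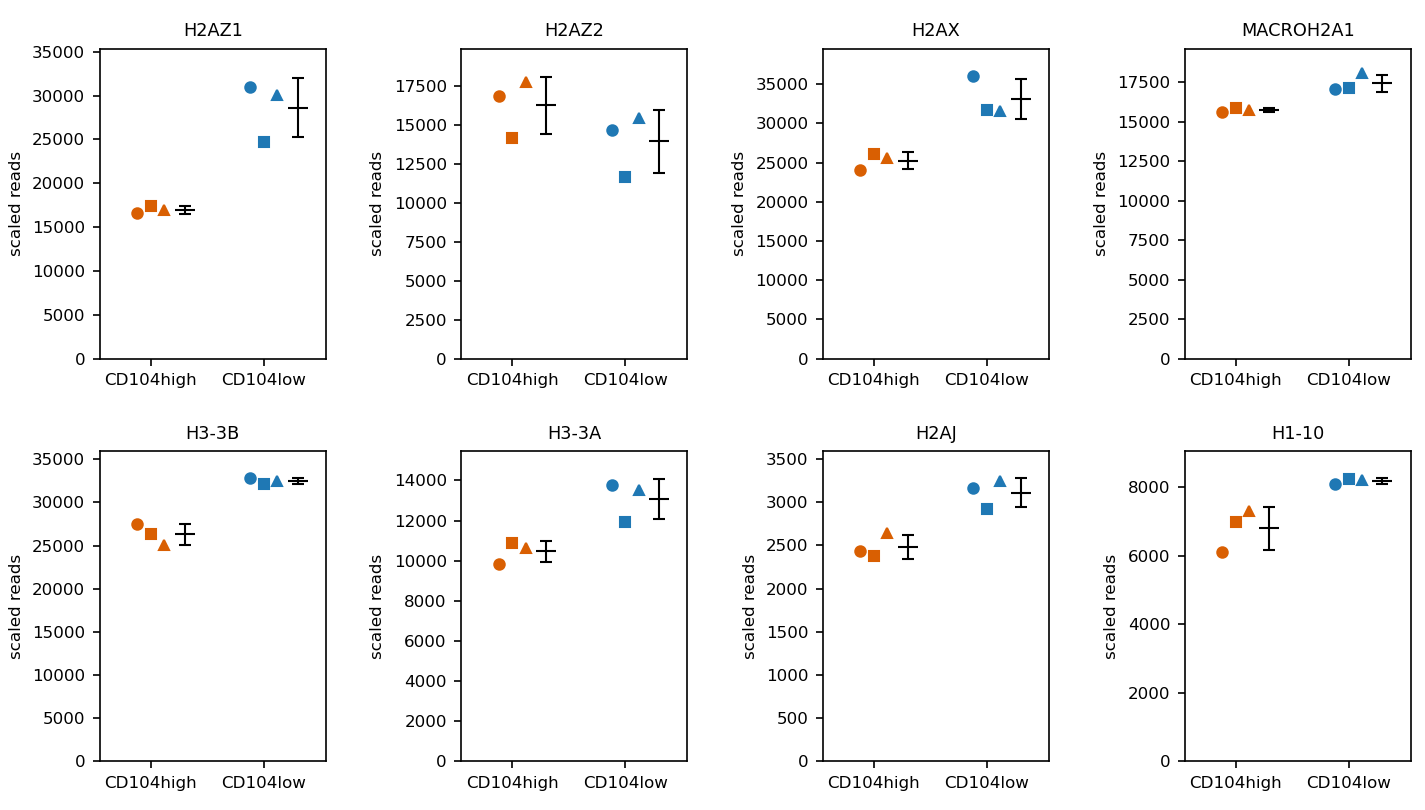
Scaled reads (linear axes from 0) of 8 variant genes in each library, with the replicate number given by the symbol (circle 1, square 2, triangle 3) and the bar at the right of each group giving the mean ± SD of 3 libraries. H2AZ1, H2AX, H3-3B, H3-3A, H2AJ and H1-10 are lower in every CD104high library and were called, MACROH2A1 is lower in every CD104high library but was not called and H2AZ2 overlaps.

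Summed over the 38 cluster genes, the libraries had 13329, 12363 and 16032 scaled reads in CD104high and 23116, 19316 and 16114 in CD104low. The CD104high mean was 28.7% lower, but replicates 3 of the 2 groups were almost level. As a share of all reads in the table the order of these 2 libraries turned, so on that scale the groups overlapped. By family, the summed cluster reads were 41.2% lower for H1, 25.9% for H2A, 19.3% for H2B, 41.1% for H3 and 32.1% for H4, and the sums of H2A and H2B overlapped between groups. H2BC12, H1-2, H2AC6, H4C9 and H2BC5 held between 83.3% and 86.7% of the cluster reads in each library, so the sum is mostly about these 5. The other 33 cluster genes together had 2117, 1930.1 and 2347 scaled reads in CD104high and 3082, 2618 and 2686 in CD104low, with no overlap.

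**Figure D4:**
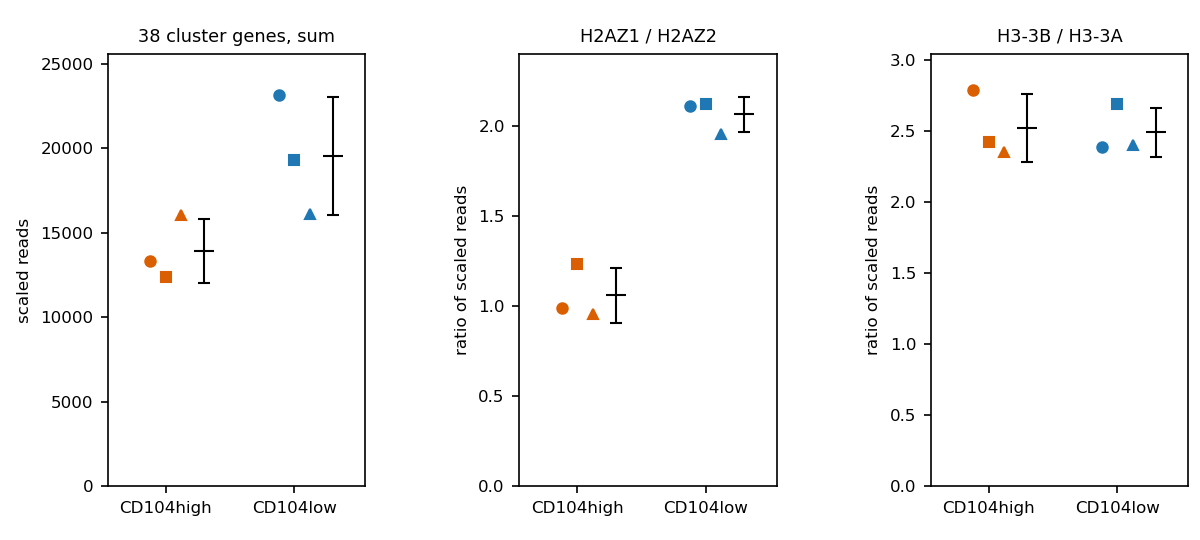
Summed scaled reads of the 38 cluster genes, and the read ratios H2AZ1 to H2AZ2 and H3-3B to H3-3A, in each library (circle, square and triangle for replicates 1, 2 and 3; bar, mean ± SD of 3 libraries; axes from 0). The cluster sums of the replicates numbered 3 nearly meet, at 16032 and 16114, while the H2AZ1 to H2AZ2 ratio is near 1 in CD104high and near 2 in CD104low and the H3-3B to H3-3A ratio overlaps.

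Libraries of 1 group were not alike in cluster histone reads. Replicate 3 of CD104high was the highest of its group for 26 of the 38 cluster genes (68.4%), against 43.4% of all genes. Replicate 1 of CD104low was the highest of its group for 21 of 38 (55.3%), against 30.5% of all genes. Without replicate 1 of CD104low, 3 cluster genes were called lower, H1-2, H1-4 and H2BC11, while calls among all genes also went down, from 3117 to 2009 of 14325. The share of cluster genes called lower was then smaller than that of all genes. Without replicate 3 of CD104high 12 cluster genes were called lower, where 3093 of 14292 genes were.

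Neighbouring cluster genes that share a promoter region did not always move by the same amount. H2BC21 and H2AC20 on chromosome 1 are transcribed away from each other, and their read ratio was 2.69, 3.98 and 5.43 in CD104high and 2.68, 2.05 and 1.57 in CD104low. For the divergent pair H2AC6 and H2BC4 on chromosome 6 the ratio was 9.24, 8.72 and 9.47 against 14.4, 14.0 and 11.5. In both pairs the H2A gene was lower relative to its H2B neighbour in every CD104high library, though replicates 1 of the first pair were almost equal. For H2BC11 and H2AC11, whose promoter windows overlap, the ratio was 1.88, 1.43 and 1.29 against 2.05, 1.82 and 1.68, so the groups overlapped and the H2B gene had the smaller share on average. In the other pairs examined the means were close. The ratio of H2BC12 to H2AC12 was 322 ± 158 (SD, n = 3) in CD104high against 332 ± 81.6 (SD, n = 3), and that of H2BC13 to H2AC13 was 1.22 ± 0.246 (SD, n = 3) against 1.14 ± 0.345 (SD, n = 3), and both overlapped.

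The features described above were set beside the fold changes without a test. Among cluster genes with a mean of at least 50, the 10 with over 100 annotated bases after the stem-loop had a median log2 fold change of -0.34, and 2 were called lower. The 8 others with a GENCODE 29 model had a median of -0.58, and 4 were called lower. Of these 8, 7 had no stem-loop in their models, so they are not shown to lack longer transcripts. In that range 24.6% of all genes were called lower. The 9 H2A and H2B genes of that range with the octamer were counted by gene, though some pairs share 1 site. They had a median of -0.37, from -0.66 for H2BC11 to 0.40 for H2BC21. The 2 without the octamer, H2BC15 and H2BC5, were at 0.01 and -0.02, too few to compare. By the longest GENCODE 29 transcript of each gene, of any type, cluster genes were short and rich in G and C. Their medians were 556.5 bases and 57.3% GC. The variant genes described had 1909.5 bases and 46.9%, and all genes tested 3515 bases and 48.5%. Many cluster models are a coding sequence alone, and the longest model of H2AZ1 retains an intron. The correction that follows used the same models. With a correction for length and GC content, which H3C2 and H3C3 could not enter, 6 cluster genes were called lower and 1, H2BC4, higher. Of all genes, 20.9% were lower and 19.6% higher. The share of cluster genes called lower was then no greater than that of all genes.

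In the authors' deposited table, 13 of 38 cluster genes were lower and 0 higher at an adjusted p under 0.05, where 22.6% of all genes with an adjusted p were lower and 23.1% higher. The authors' deposited table called 7 of the 12 variant genes lower. The members called in the authors' deposited table but not here were H2AC6, H2BC12, MACROH2A1 and H3C14, the last of which was not tested here.

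Genes that act on histone transcripts were described by count, from lists chosen with earlier results known. The counts of these and the following lists stand beside 21.6% of all genes called lower and 21.8% called higher, and 25.5% and 26.3% at an unadjusted p under 0.05. Of 23 genes of histone transcription and messenger RNA processing, 10 were called lower (43.5%) and 2 higher (8.7%), with a median log2 fold change of -0.13. SLBP, which binds the stem-loop, had 5409, 5473 and 6733 scaled reads in CD104high and 9026, 7798 and 8920 in CD104low, and fell by 0.55 ± 0.10 (log2, SE, limma adjusted p = 0.00274). LSM10, a protein of the U7 particle that cuts histone transcripts, fell by 0.68 ± 0.09 (limma adjusted p = 0.000739). NPAT, the activator of cluster histone genes at the histone locus body, had 2627 ± 135 scaled reads (SD, n = 3) in CD104high against 2593 ± 141 (SD, n = 3) in CD104low (limma adjusted p = 0.854). TUT7 and TUT4, which add uridines to histone messenger RNA during its decay, rose by 0.38 ± 0.07 and 0.23 ± 0.07 (log2, SE, limma adjusted p = 0.00406 and 0.028).

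Of 15 replication-coupled histone chaperone genes, 7 were called lower (46.7%) and 0 higher by limma, and 8 and 0 at an unadjusted p under 0.05, with a median of -0.18. HAT1, the enzyme that acetylates new H4 before its deposition, had 5439, 5474 and 6229 scaled reads against 14977, 9347 and 13754, and fell by 1.13 ± 0.16 (log2, SE, limma adjusted p = 0.000981). SSRP1, a subunit of the FACT chaperone, fell by 0.53 ± 0.07 (limma adjusted p = 0.0009). Of 21 genes for variant chaperones and exchange complexes, 7 were called lower (33.3%) and 4 higher (19.0%), the latter near the share of all genes. RUVBL1 and RUVBL2, the ATPases shared by the complexes that exchange H2A.Z, fell by 0.58 ± 0.06 and 0.66 ± 0.08 (log2, SE, limma adjusted p = 0.000396 and 0.000574). CABIN1, a subunit of the HIRA complex, and ATF7IP, a partner of the methyltransferase SETDB1, rose by 0.47 ± 0.09 and 0.46 ± 0.08 (limma adjusted p = 0.00412 and 0.00282).

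Most listed genes of the cell cycle were also called lower in CD104high, and their part in the histone results was not tested. Within a group they did not all follow the cluster sum, which was highest in replicate 3 of CD104high. TIPIN and CDCA7 were lowest in that library of the group, and GMNN was highest there. Of 43 S phase genes, 29 were called lower and 0 higher in CD104high by limma (32 and 0 at an unadjusted p under 0.05), with a median log2 fold change of -0.32 and list sums of 218642 to 233814 scaled reads in CD104high against 255540.4 to 300245.6 in CD104low. TIPIN and CDCA7 had the smallest p, at -0.85 ± 0.10 and -0.76 ± 0.08 (log2, SE), and PCNA, the sliding clamp of DNA polymerases, was at -0.37 ± 0.10 (limma adjusted p = 0.0146). Of 22 genes of G2 and mitosis, 13 were called lower and 2, TOP2A and CENPF, higher. CDC20 and CENPE had the smallest p among the lower ones, at -0.65 ± 0.08 and -0.58 ± 0.07 (log2, SE). CENPA was at -0.43 ± 0.15 (log2, SE, limma adjusted p = 0.043). CDKN1A, which encodes the cell cycle inhibitor p21, had 5076, 4308 and 5655 scaled reads against 2133, 2256 and 1911, and rose by 1.25 ± 0.11 (log2, SE, limma adjusted p = 0.000235).

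Other RNAs without a poly(A) tail were also low in CD104high, and their part in the histone results was not tested, and whether poly(A) RNA was selected is not given in these sources. Of the 12 of 38 listed genes that were in the table, 8 were tested. One of these, RNU5A-1, passed the filter through the CD104low libraries alone, so its lower call was partly fixed by the filter. Of the other 7, 5 were called lower and 1 higher. RN7SL1, the RNA of the signal recognition particle, had 1264, 1101 and 2239 scaled reads in CD104high and 4494, 3578 and 4114 in CD104low. SNORD3B-2, a U3 small nucleolar RNA, had 218, 173 and 292 against 760.3, 560.1 and 757. Both had their highest CD104high value in replicate 3, as 43.4% of all genes did. Their highest CD104low value was in replicate 1, as for 30.5% of all genes, though replicates 1 and 3 of SNORD3B-2 were nearly equal there. MALAT1, a nuclear RNA with a triple-helix end, had 58313, 55959 and 34925 against 31008, 35487 and 17820.1 and was the one called higher, which left the summed list at 37988 to 60239.7 in CD104high and 23779.9 to 40505 in CD104low.

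**Figure D5:**
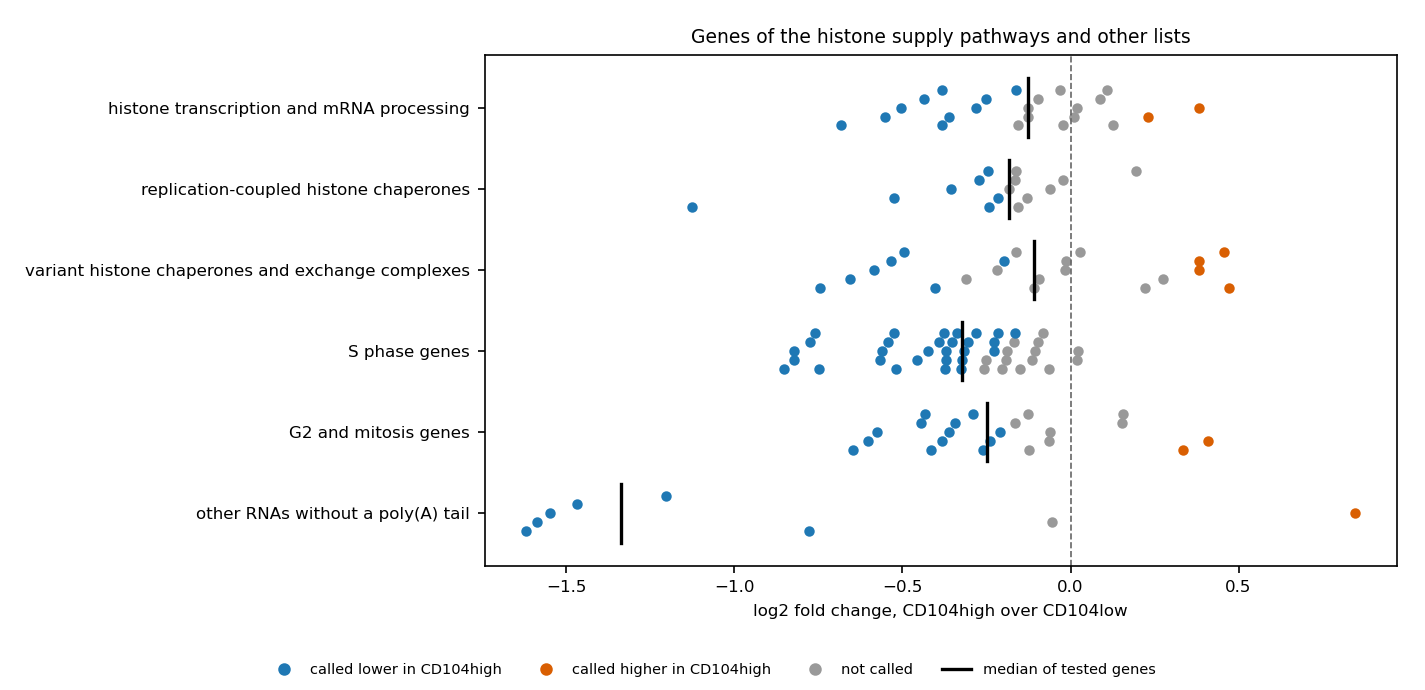
Log2 fold change of CD104high over CD104low (limma, 3 samples a group) for each tested gene of 6 lists, spread vertically for legibility; blue was called lower, orange higher and grey neither, and the black line is the median of the list. S phase genes lie mostly left of 0 with a median of -0.32, and RN7SL1, RN7SL3, SNORD3A and SNORD3B-2 lie left of every gene of the other lists, as does RNU5A-1, which passed the filter through CD104low alone.

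The samples carried the markers of the line. All 8 mesenchymal markers were tested, and 3 were called higher in CD104high and 0 lower by limma (4 and 0 at an unadjusted p under 0.05), FN1 and AXL with the smallest p. Of 12 epithelial markers 8 were in the table, and 4 were called higher, KRT19 and KRT18 with the smallest p, while CDH1, GRHL2, OVOL1 and RAB25 were outside the table. ESR1 and PGR were outside the table too, and ERBB2 was called higher. Of 5 leukocyte markers, LAPTM5 and CD14 were in the table and called higher, with sums of 679 to 936 scaled reads in CD104high and 319.8 to 404 in CD104low, and PTPRC, CD3E and TYROBP were outside it.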

How the data were processed

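RNA of 6 sorted samples of 1 cell line was sequenced, 3 a population. The tools listed in the submitters' processing notes are Salmon 1.3.0, FastQC and DESeq2, with GRCh38 as the build and no roles or order. The authors deposited, per the file headers, one value per gene and library, a read signal scaled by library, beside their own log2 fold changes with standard errors and their p-values, raw and adjusted. Library selection, strand and the authors' filters were not stated. Dividing each library by its step gave whole numbers within 0.01 for 100% of values, which may be counted reads or rounded Salmon estimates and which the count tests (edgeR 4.0.16, DESeq2 1.42.0) used as alternatives only.

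Populations were compared in R 4.3.3 by limma 3.58.1, trended on intensity, on log2(value + 1), over genes with at least 10 in at least 3 samples, with population as the only term and Benjamini-Hochberg adjustment at 0.05. Fold changes on this scale are understated for low genes. The fitting step was tested on simulated data. Of the 51 members 50 are reported, and 1 variant gene is not reported here, so no summed level or median fold change is given for the variant class. Members were named, those with a mean of at least 50 by library, and of each pathway list the 2 called genes with the smallest p in each direction, plus SLBP, NPAT, CENPA, PCNA, CDKN1A, ITGB4 and KMT2C. The members and lists were chosen with earlier results of these data known. None of 15 mitochondrial transcripts was in the table.

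Positions and transcripts came from GENCODE 29 on GRCh38, which held 48 of these 50 members (all but H3C2 and H3C3), and promoters from RefSeq on GRCh38.p14. The share of 31-base words was counted on the sense strand over all GENCODE 29 transcripts.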

Additional observations from a re-analysis of the deposited data

How the results depend on the processing

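The alternatives were a replicate block, equal library totals, quantile normalization, pseudocounts of 0.5 and 5, other filters, limma without a trend, count tests on recovered reads, a length and GC correction and leaving out each library; counts over genes with a mean of at least 50 were added after seeing the data. The labels do not say whether replicate numbers pair the samples, and the main fit did not pair them. The correlation of same-numbered deviations was 0.0836 for pair 1, 0.359 for pair 2 and 0.324 for pair 3. Every library correlated best with its own number, and correlations between different numbers ran from -0.318 to 0.0131. With the replicate block 13 cluster genes were called lower and 0 higher, 7 variant genes lower and 1, H2AZ2, higher, and 3829 and 4047 of all genes lower and higher. The replicate block with the length and GC correction called 8 cluster genes lower and 2 higher (H2BC4 and H2BC21), and 6 variant genes lower and 1 higher (H2AZ2). Of all 14398 genes in that fit it called 3806 lower and 3880 higher, so the share of cluster genes called lower was no greater than that of all genes. Cluster genes called lower numbered 16 with quantile normalization and 0 were called higher, where 3308 of all genes were lower and 2810 higher. With the length and GC correction 6 cluster genes were called lower and 1 higher, where 3010 of all genes were lower and 2827 higher. Leaving out 1 library gave 3 to 12 cluster genes lower, 5 to 6 variant genes lower, 2009 to 3197 of all genes lower and 2092 to 3198 higher. No member with a call changed sign. H1-2, H1-4, H2AX, H2AZ1, H2AJ and H3-3B kept their calls in all 18 alternatives. Quantile normalization and equal totals moved the median of all genes to -0.03 and 0.05. Cluster genes under 50 scaled reads and near-identical copies are the least certain, and 3 samples a group limit all calls.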
